A study of Mus musculus with 8 samples.

Results

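The 10 glycolysis enzymes Hk2, Gpi1, Pfkl, Aldoa, Tpi1, Gapdh, Pgk1, Eno1, Pkm and Ldha were taken by gene symbol from RNA-seq and Ribo-seq tables of mouse inguinal white adipose tissue (iWAT). They were 10 symbols with 11 gene entries, out of 17264 genes listed in either assay. The symbol Aldoa was carried by a main entry (ENSMUSG00000030695) and by a short entry (ENSMUSG00000114515), and the main entry stands for Aldoa below. The question was whether the enzymes that turn glucose into lactate had other transcript or footprint levels in cold-exposed iWAT when adipocytes lacked Ythdf1, which encodes a reader of N6-methyladenosine on mRNA.

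Y1cKO mice carried floxed Ythdf1 alleles with Adipoq-Cre, and Y1CTL mice carried the floxed alleles without Cre. All were 9-week-old C57BL/6 males kept at 4 °C for 7 days, so that there was no group at a warmer temperature. RNA-seq counted polyadenylated transcripts and Ribo-seq counted fragments of mRNA protected by ribosomes, each with 2 libraries per genotype, 8 libraries in all. Adipoq-Cre acts in adipocytes, while the libraries came from whole tissue in which vessels, immune cells and fibroblasts keep the gene. In whole tissue, fewer cells of a type and less RNA per cell cannot be told apart. The labels do not say that replicates came from separate animals, so that p-values measure no more than library spread, which may be partly technical.

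Glycolysis splits glucose into pyruvate in the cytosol, and lactate dehydrogenase turns pyruvate into lactate. Hexokinase and phosphofructokinase carry out steps that are in effect one-way, and pyruvate kinase is the last such step. In adipocytes the pathway also supplies the glycerol backbone of triglycerides and carbon for new fatty acids, and brown and beige adipocytes take up much glucose in the cold. Several genes of the pathway are known targets of hypoxia-inducible factors and of MYC, whose binding motifs contain ACGTG or GCGTG and CACGTG.

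Start-site sequences are shown for 5 enzymes because they show how the known motif letters stand in the genes whose values follow. In 300-base RefSeq windows of GRCm38.p6, which run from upstream of each start site to just after it, ACGTG was found on either strand for 6 of 10 enzymes (Hk2, Aldoa, Gapdh, Pgk1, Pkm and Ldha), against 21.8% of 27025 genes. GCGTG was found for 4 of 10 (Pfkl, Gapdh, Eno1 and Ldha), against 35.2% of genes. CACGTG, which contains ACGTG on both strands, was found for 1 of 10 (Ldha), against 8.09% of genes. All 10 symbols matched, with 16 windows, and a gene with several windows has more chances of a match. Each sequence is on the strand of its gene, with the motif in capitals, and CACGT is ACGTG read on the other strand.
Hk2, first capital at position -52 from the start site (chr6:82774490-82774518, minus strand): aatgagcacatcCACGTcactgtccgggg
Aldoa, position -126 from 1 of its start sites (chr7:126799364-126799392, minus strand): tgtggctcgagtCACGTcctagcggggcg
Pgk1, position -150 (chrX:106186938-106186966, plus strand): gcgtcgtgcaggACGTGacaaatggaagt
Pkm, position -75 (chr9:59657140-59657168, plus strand): ctccgatccggtCACGTccgcgccgcagc
Ldha, position -48 (chr7:46845744-46845773, plus strand): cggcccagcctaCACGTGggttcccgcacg
These are matches of letters only, and no binding was measured.

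The libraries differed in ways that touch the enzymes. RNA-seq libraries held 12211351 and 16429015 assigned reads in Y1cKO, against 3958284 and 4963613 in Y1CTL, and Ribo-seq libraries held 9511334 and 9035419 in Y1cKO, against 11862838 and 7364523 in Y1CTL. Every enzyme was well covered, with at least 671 reads in each library. RPKM are reads scaled to gene length and to the assigned reads of the library. Ythdf1 had 7.17 and 7.98 RPKM in Y1cKO RNA-seq, against 8.01 and 11.5 RPKM in Y1CTL. These values cover the whole transcript, with the floxed exon. Ythdf1 footprints were at 12.7 and 15.7 RPKM in Y1cKO Ribo-seq, against 17.3 and 15.99 RPKM in Y1CTL. The parts of the floxed exon and of cells that keep the gene were not tested. The adipocyte gene Adipoq was high in every library, with 264 to 908 RPKM in RNA-seq and 2840 to 4113 RPKM in Ribo-seq. Y1cKO RNA-seq replicate 1 stood apart in a list of 20 skeletal muscle genes, with a median of 12.5 RPKM, against 0 to 0.0436 RPKM in the other RNA-seq libraries. There, Ckm had 18.5 RPKM, against 0 in the other 3 RNA-seq libraries. Y1CTL RNA-seq replicate 2 stood apart in a list of 18 lymphocyte genes, with a median of 14.5 RPKM, against 0.0781 to 0.194 RPKM in the other RNA-seq libraries. There, Cd79a had 63.9 RPKM, against 0 to 0.506 RPKM in the others. In Ribo-seq the median of the lymphocyte list was 49.1 and 52.9 RPKM in Y1cKO and 46.5 and 43.1 RPKM in Y1CTL, and that of the muscle list was at most 0.315 RPKM. A list of 10 macrophage genes had medians of 8.54 to 11.8 RPKM in RNA-seq and 130 to 160 RPKM in Ribo-seq.

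The 10 enzymes were among the most abundant messages of the tissue. Their mean over the 4 libraries of an assay lay at or above percentile 94.4 in Ribo-seq and percentile 96.1 in RNA-seq. These percentiles are among genes averaging 0.5 RPKM or more in that assay. By footprints per coding length, Aldoa (2245 RPKM), Ldha (1959 RPKM) and Pkm (1811 RPKM) led, and their ranges over libraries overlapped from each to the next. Tpi1 (951 RPKM), Gpi1 (798 RPKM), Pgk1 (479.8 RPKM) and Eno1 (417 RPKM) followed, again with overlapping neighbours, and every library of Tpi1 lay below every library of Pkm. Pfkl (277 RPKM), Gapdh (227 RPKM) and Hk2 (210.4 RPKM) formed the lower end of the footprint levels, with ranges that overlapped from each to the next and lay below that of Eno1.

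The order by transcripts differed mainly in the place of Gapdh. By RNA-seq per transcript length, Aldoa had a mean of 1394 RPKM and Gapdh 714 RPKM, and the ranges of Aldoa, Gapdh and Ldha did not overlap. Ldha (397 RPKM) and Pkm (359 RPKM) came next, with overlapping ranges. Tpi1 (222 RPKM), Gpi1 (218 RPKM) and Eno1 (177 RPKM) overlapped from each to the next, as did Pgk1 (94.8 RPKM), Pfkl (90.6 RPKM) and Hk2 (79.7 RPKM). Hk2, Pfkl and Pgk1 were thus the lowest of the 10 transcripts, while Pfkl, Gapdh and Hk2 were the lowest of the 10 by footprints.

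**Figure D1:**
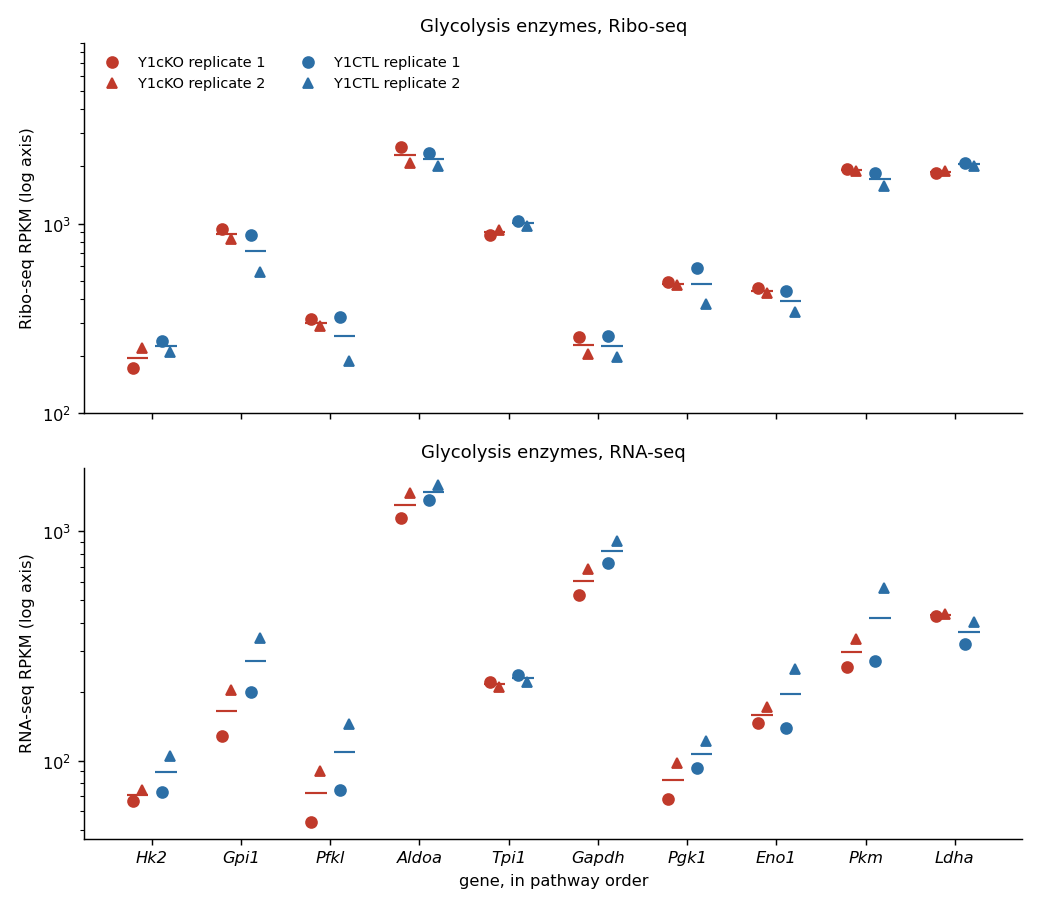
RPKM of each glycolysis enzyme in every library on log axes, Ribo-seq above and RNA-seq below, with Y1cKO (red) left of Y1CTL (blue); circles are replicate 1, triangles replicate 2 and short lines the mean of 2 libraries. In RNA-seq the Y1CTL replicate 2 triangle is the highest point for 8 of the 10 enzymes, and in Ribo-seq the Y1CTL replicate 2 triangle is the lowest for 7.

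The listed isoenzymes held most of their steps. Hk2, the insulin-responsive hexokinase of fat and muscle, made up 85.9% to 91.1% of the summed RPKM of Hk1, Hk2 and Hk3 over the 8 libraries. Hk1, the housekeeping form, made up 8.04% to 12.4% of that sum, and Hk3 at most 1.98%. Pfkl, the liver-type subunit of phosphofructokinase, made up 57.3% to 78.9% of its step, Pfkp 16.05% to 33.1% and the muscle-type subunit Pfkm 5.1% to 15.5%. Aldoa made up 99.895% to 99.990% of the summed RPKM of the aldolases, and the brain-type Aldoc at most 0.105%. Eno1 made up 93.4% to 98.9% of enolase, and Ldha 71.2% to 92.0% of lactate dehydrogenase, with Ldhb, the heart-type subunit, at 8.01% to 28.8%. Pgam1, the mutase of the step between Pgk1 and Eno1, had 1484 and 1563 RPKM in Y1cKO Ribo-seq, against 1873 and 906 RPKM in Y1CTL. By RNA-seq, Pgam1 had 148 and 189 RPKM in Y1cKO, against 227 and 268 RPKM in Y1CTL. Both Y1cKO libraries were thus the lower ones, as for 10.7% of all genes tested.

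Eno3 and Pgam2, the muscle forms of enolase and phosphoglycerate mutase, were highest in the RNA-seq library with the muscle transcripts. In RNA-seq, Eno3 had 9.37 and 2.49 RPKM in Y1cKO, against 2.26 and 2.58 RPKM in Y1CTL. Pgam2 had 5.46 and 0 RPKM in Y1cKO RNA-seq, against 0.602 and 0 RPKM in Y1CTL. In that same library, Y1cKO RNA-seq replicate 1, 7 of the 10 enzymes had their lowest RNA-seq value. The neuronal enolase Eno2 stayed at or below 1.23 RPKM in every library of both assays.

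Near-identical copies took few reads. The short Aldoa entry had 2.79 and 2.14 RPKM in Y1cKO Ribo-seq, against 1.43 and 1.31 RPKM in Y1CTL, and at most 2.14 RPKM in RNA-seq. Eno1b, Aldoart1 and Aldoart2, copies of Eno1 and Aldoa, did not exceed 1.16 RPKM in any library. The mouse genome also carries many processed copies of Gapdh and of other glycolysis genes, and how reads matching several places were counted is not given in the sources used here, so that levels of these genes are uncertain to that extent.

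Within each assay many of the enzymes had their extreme values in the same libraries. In RNA-seq, 7 enzymes (Hk2, Gpi1, Pfkl, Aldoa, Gapdh, Pgk1 and Pkm) had their lowest value in Y1cKO replicate 1, as 10.8% of all genes tested did, and those 7 with Eno1 had their highest in Y1CTL replicate 2, as 22.9% of genes did. In Ribo-seq, 7 enzymes (Gpi1, Pfkl, Aldoa, Gapdh, Pgk1, Eno1 and Pkm) had their lowest value in Y1CTL replicate 2, against 28.6% of genes, and the other 3 in Y1cKO replicate 1, against 32.8%. The Ribo-seq high was Y1CTL replicate 1 for 6 enzymes, against 23.3% of genes, and Y1cKO replicate 1 for 4, against 18.6%.

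The thermogenic gene Ucp1, which marks beige and brown adipocytes, had the same extreme libraries as many of them. In RNA-seq, Ucp1 had 48.1 and 544 RPKM in Y1cKO, against 609 and 1441 RPKM in Y1CTL. The 7 enzymes with the same lowest and the same highest library as Ucp1 in RNA-seq compare with 5.19% of all genes tested. In Ribo-seq, Ucp1 had 3164 and 2481 RPKM in Y1cKO, against 3586 and 955 RPKM in Y1CTL. There, Pfkl, Gapdh and Pgk1 shared both extremes with Ucp1, against 10.4% of genes. A list of beige and brown adipocyte genes, of which 13 of 14 were found and none was at 0, had medians of 18.3 and 81.3 RPKM in Y1cKO RNA-seq, against 73.7 and 145 RPKM in Y1CTL. In Ribo-seq that list had medians of 392.1 and 312 RPKM in Y1cKO, against 484 and 112 RPKM in Y1CTL. The summed RPKM of the list ran from 508 to 1800 in Y1cKO and from 2083 to 3470 in Y1CTL by RNA-seq, and from 9652 to 11883 in Y1cKO and from 4919 to 14911 in Y1CTL by Ribo-seq. A list of 12 adipocyte genes had RNA-seq medians of 655 and 702 RPKM in Y1cKO, against 574 and 381 RPKM in Y1CTL, and Ribo-seq medians of 1396 and 1169 RPKM in Y1cKO, against 1420 and 1374 RPKM in Y1CTL. The part of beige adipocyte content in the enzymes' values was not tested.

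**Figure D2:**
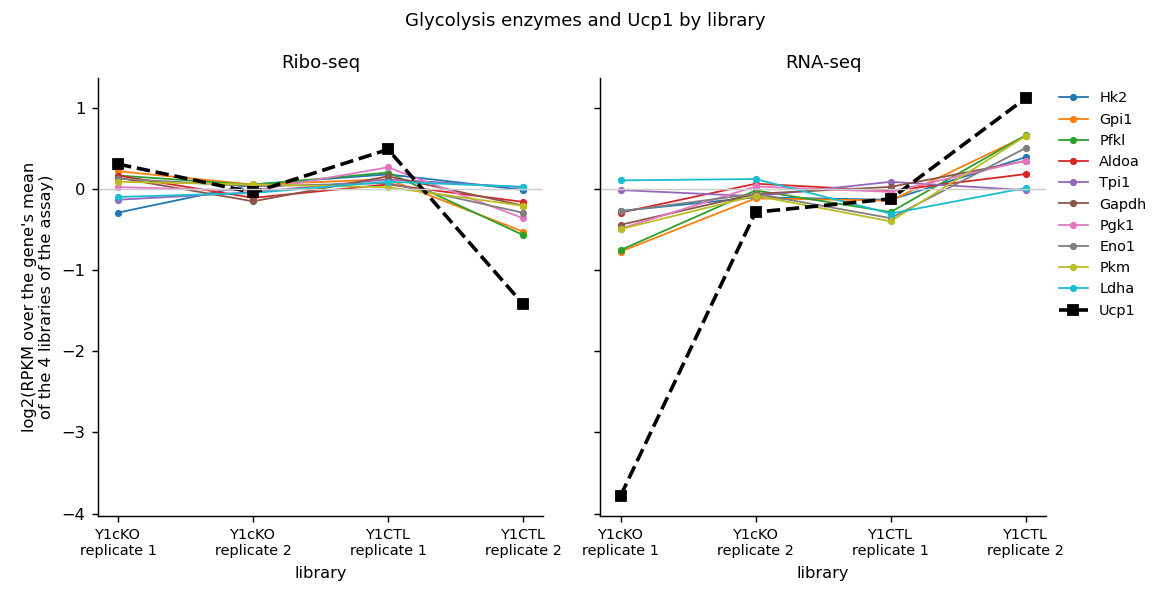
Each glycolysis enzyme (coloured lines) and Ucp1 (black dashed line with squares) in the 4 libraries of Ribo-seq (left) and RNA-seq (right), as log2 of RPKM over the gene's own mean in that assay; lines only join the points of a gene. In RNA-seq most enzymes and Ucp1 are lowest in Y1cKO replicate 1 and highest in Y1CTL replicate 2, and in Ribo-seq Ucp1 and 7 of 10 enzymes are lowest in Y1CTL replicate 2.

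By the numbers of the labels, which describe divided lysates, same-numbered libraries moved in opposite ways. The headers of the Y1cKO RNA-seq tables carry the exchanged numbers, so that for Y1cKO this rests on following the labels. In Y1cKO, replicate 1 lay above replicate 2 for 7 of 10 enzymes by Ribo-seq and for 1 of 10 by RNA-seq, or 9 of 10 by RNA-seq with the header numbers. In Y1CTL, whose RNA-seq headers match the labels, replicate 1 lay above replicate 2 for 10 of 10 enzymes by Ribo-seq, with a median ratio of 1.23, and for 1 of 10 by RNA-seq, with a median ratio of 0.730. Ucp1 did likewise, with a ratio of replicate 1 over replicate 2 in Y1CTL of 3.75 by Ribo-seq and 0.423 by RNA-seq. Ratios of footprints to transcripts per numbered pair rest on the numbering, while the difference of genotype means does not.

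By Ribo-seq, no enzyme passed the test between genotypes. The median log2 change (Y1cKO minus Y1CTL) of the 10 was 0.06, beside 0.01 over all 12602 genes tested, with 7 above 0 and 3 below. Of the 10, 0 passed an adjusted p under 0.05 (limma with Benjamini-Hochberg adjustment), as did 0% of all genes, and voom on the reads also called 0. At an unadjusted p under 0.05 the count of enzymes was again 0, against 1.13% of genes lower and 1.62% higher in Y1cKO. For 2 enzymes (Tpi1 and Ldha) the Y1cKO libraries were both lower than either Y1CTL library, against 14.1% of genes, and for 1 (Pkm) both higher, against 15.4%.

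Hk2 had 173 and 219.8 RPKM by Ribo-seq in Y1cKO, against 239 and 209.7 RPKM in Y1CTL. Gpi1, which turns glucose phosphate into fructose phosphate, had 933 and 832 RPKM in Y1cKO footprints, against 870.4 and 556 RPKM in Y1CTL. Pfkl had 312 and 288 RPKM in Y1cKO footprints, against 319.7 and 187 RPKM in Y1CTL. The genotypes overlapped for all 3 enzymes, and for Gpi1 and Pfkl the single low value was Y1CTL replicate 2. Their log2 changes were -0.20 for Hk2 (95% interval -0.62 to 0.22), 0.34 for Gpi1 (-0.25 to 0.93) and 0.29 for Pfkl (-0.33 to 0.91).

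Aldoa, which cleaves the hexose bisphosphate, had 2527 and 2089 RPKM by Ribo-seq in Y1cKO, against 2344 and 2018 RPKM in Y1CTL. Tpi1, which interconverts the resulting trioses, had 871 and 928 RPKM in Y1cKO, against 1037 and 969 RPKM in Y1CTL. The groups overlapped for Aldoa, and both Y1cKO libraries were the lower ones for Tpi1. The log2 change was 0.08 for Aldoa (95% interval -0.46 to 0.62) and -0.16 for Tpi1 (-0.57 to 0.26).

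Gapdh, which oxidises the triose and makes NADH, had 251 and 206 RPKM by Ribo-seq in Y1cKO, against 255 and 198 RPKM in Y1CTL. Pgk1, which makes the first ATP of the pathway, had 489 and 475 RPKM in Y1cKO, against 579.7 and 375 RPKM in Y1CTL. Eno1, which dehydrates phosphoglycerate, had 458 and 428 RPKM in Y1cKO, against 440.3 and 342 RPKM in Y1CTL. All 3 overlapped, and the Y1cKO values of Pgk1 and Eno1 lay close together while those of Y1CTL were spread. The log2 changes were 0.02 for Gapdh (95% interval -0.43 to 0.47), 0.05 for Pgk1 (-0.51 to 0.60) and 0.19 for Eno1 (-0.24 to 0.62).

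Pkm, which makes pyruvate, had 1934 and 1890 RPKM by Ribo-seq in Y1cKO, against 1846 and 1575 RPKM in Y1CTL. Ldha, which turns pyruvate into lactate, had 1837 and 1900 RPKM in Y1cKO, against 2092 and 2006 RPKM in Y1CTL. These adjacent steps differed in direction without overlap, Pkm with both Y1cKO libraries above and Ldha with both below. Neither passed the test, with a log2 change of 0.16 for Pkm (95% interval -0.32 to 0.65) and -0.13 for Ldha (-0.61 to 0.34), and an adjusted p of 1.00 for each of the 10 enzymes (limma, Benjamini-Hochberg). Without Y1CTL replicate 2, the Ribo-seq log2 changes of Pfkl (-0.09), Aldoa (-0.03), Gapdh (-0.16) and Pgk1 (-0.27) lay below 0, and without Y1cKO replicate 1 those of Aldoa (-0.06) and Gapdh (-0.13) did.

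By RNA-seq, transcripts of 9 of the 10 enzymes had a log2 change below 0 and Ldha one above 0, and again none passed the test. The median of the 10 was -0.35, beside 0.17 over all 12435 genes tested, of which 32.8% lay below 0. With the RNA-seq libraries scaled to the same median, the median of all genes was 0.01 and that of the enzymes -0.52. Of the 10, 0 passed an adjusted p under 0.05 (limma with Benjamini-Hochberg adjustment; 0% of all genes), voom on the reads called 0, and at an unadjusted p under 0.05 there were 0, against 1.79% of genes lower and 10% higher in Y1cKO. For 1 enzyme, Gapdh, the Y1cKO libraries were both lower than either Y1CTL library, against 10.7% of genes, and for 1, Ldha, both higher, against 36.9%.

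Gpi1 and Pfkl had the widest spread over libraries of the 10 transcripts. By RNA-seq, Hk2 had 66.3 and 74.5 RPKM in Y1cKO, against 73.0 and 105 RPKM in Y1CTL. Gpi1 had 128 and 202 RPKM in Y1cKO transcripts, against 198 and 344 RPKM in Y1CTL. Pfkl had 54.0 and 89.9 RPKM in Y1cKO transcripts, against 74.7 and 144 RPKM in Y1CTL. For each of these the groups overlapped, with the low end in Y1cKO replicate 1 and the high end in Y1CTL replicate 2. The log2 changes were -0.31 for Hk2 (95% interval -0.90 to 0.27), -0.70 for Gpi1 (-1.59 to 0.20) and -0.57 for Pfkl (-1.54 to 0.40).

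Aldoa transcripts had 1144 and 1464 RPKM in Y1cKO, against 1378 and 1590.1 RPKM in Y1CTL. Tpi1 transcripts had 221 and 209.7 RPKM in Y1cKO, against 237 and 221 RPKM in Y1CTL, the narrowest spread of the 10. Gapdh transcripts had 527 and 688 RPKM in Y1cKO, against 729 and 910.3 RPKM in Y1CTL. Gapdh was the enzyme whose Y1cKO libraries were both the lower ones, by a log2 change of -0.44 (95% interval -1.18 to 0.31). The log2 change was -0.19 for Aldoa (-1.05 to 0.67) and -0.09 for Tpi1 (-0.59 to 0.41).

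Pgk1 transcripts had 67.8 and 97.3 RPKM in Y1cKO, against 92.9 and 121 RPKM in Y1CTL. Eno1 transcripts had 147 and 171 RPKM in Y1cKO, against 138 and 252 RPKM in Y1CTL. Pkm transcripts had 256 and 340.4 RPKM in Y1cKO, against 273 and 567 RPKM in Y1CTL. The groups overlapped for all 3, and the highest value of each was Y1CTL replicate 2, without which the log2 change was 0.19 for Eno1 and 0.11 for Pkm. With all libraries it was -0.38 for Pgk1 (95% interval -1.02 to 0.25), -0.24 for Eno1 (-1.04 to 0.56) and -0.42 for Pkm (-1.40 to 0.57).

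Ldha was the exception among the transcripts. It had 429 and 434 RPKM in Y1cKO RNA-seq, against 323 and 402 RPKM in Y1CTL, so that both Y1cKO libraries were the higher ones. Of all genes tested, 36.9% had both Y1cKO libraries higher. The log2 change of Ldha was 0.26 (95% interval -0.35 to 0.87), beside a median of 0.17 over all genes tested. With libraries scaled to the same median it was 0.09. Adjusted p-values of the 10 enzymes in RNA-seq ran from 0.487 to 0.867 (limma, Benjamini-Hochberg). Without Y1CTL replicate 2, the library with the lymphocyte transcripts, the median log2 change of the 10 was -0.10 in RNA-seq, and without Y1CTL replicate 1 it was -0.59. Without Y1cKO replicate 1, the library with the muscle transcripts, it was -0.17.

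**Figure D3:**
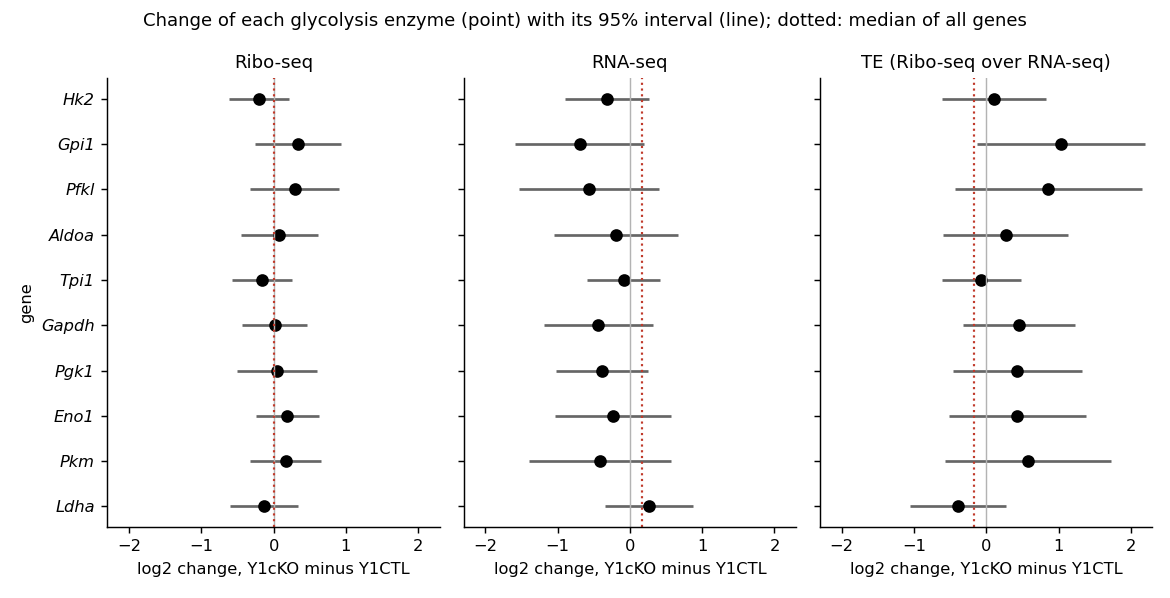
Log2 change (Y1cKO minus Y1CTL) of each glycolysis enzyme in Ribo-seq, RNA-seq and translational efficiency (TE), with points for the limma estimate on log2(RPKM + 0.5), lines for its 95% interval and a dotted red line for the median of all genes tested. Every interval includes 0, and in RNA-seq 9 of 10 points lie below 0.

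Read as a share of all assigned reads, the 10 enzymes together took 1.33% and 1.26% of Y1cKO footprints, against 1.35% and 1.12% of Y1CTL footprints. The mean was 1.29% ± 0.0494 in Y1cKO and 1.23% ± 0.167 in Y1CTL (SD, n = 2 each), so that the genotypes overlapped. In RNA-seq the share was 0.556% and 0.695% in Y1cKO, against 0.640% and 0.893% in Y1CTL, with means of 0.625% ± 0.0985 in Y1cKO and 0.766% ± 0.179 in Y1CTL (SD, n = 2 each). The ratio of the RNA-seq means was 0.816, and it was 0.816 with the 20 muscle genes left out of the totals.

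Translational efficiency (TE), footprints over transcripts, was computed from both assays, which differed in marker genes. The lymphocyte list had medians of 43.1 to 52.9 RPKM in Ribo-seq. In RNA-seq it had 0.0781 to 0.194 RPKM, apart from 14.5 RPKM in Y1CTL replicate 2. A TE value can thus also carry a difference in the tissue that each assay sampled, and that part was not tested. The median log2 TE change of the 10 enzymes was 0.43, beside -0.17 over all 11792 genes tested, with 8 above 0 and 2 (Tpi1 and Ldha) below, where Tpi1 had 0.10 with libraries scaled to the same median. That scaling gave a median of 0.60 for the enzymes and -0.02 for all genes. Of the 10, 0 passed an adjusted p under 0.05 (limma interaction test with Benjamini-Hochberg adjustment; 0% of all genes), voom on the reads called 0, and 0 had an unadjusted p under 0.05, against 7.12% of genes lower and 1.53% higher in Y1cKO. With pairs numbered as in the labels, and 0.5 added to each RPKM, both Y1cKO ratios lay below both Y1CTL ratios for 1 enzyme, Ldha, against 29.8% of genes, and above them for 0, against 9.53% of genes. With the header numbers they lay below for 2, Tpi1 and Ldha, against 33.1% of genes, and above for 3, Gpi1, Aldoa and Gapdh, against 10.6% of genes. The ratios that follow are numbered as in the labels.

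Gpi1 had the largest TE difference of the 10. Its ratio of Ribo-seq to RNA-seq RPKM was 7.24 and 4.10 in Y1cKO, against 4.38 and 1.61 in Y1CTL, and the log2 TE change was 1.04 (95% interval -0.13 to 2.198, adjusted p = 0.563 by limma with Benjamini-Hochberg). Pfkl had ratios of 5.73 and 3.19 in Y1cKO, against 4.26 and 1.30 in Y1CTL, with a log2 TE change of 0.86 (-0.43 to 2.15). The groups overlapped for both, and Y1CTL replicate 2 had the lowest ratio of each. With the header numbers the Gpi1 ratios were 4.598 and 6.46 in Y1cKO, both above the 4.38 and 1.61 in Y1CTL, and the Pfkl ratios were 3.45 and 5.29 in Y1cKO, against 4.26 and 1.30 in Y1CTL, which still overlapped. Without Y1CTL replicate 1, which leaves a single Y1CTL library per assay, Gpi1 passed the test (log2 TE change 1.75, adjusted p = 0.0490 by limma with Benjamini-Hochberg), as did 8.14% of all genes in that fit, while without Y1CTL replicate 2 its log2 TE change was 0.32 and no gene passed.

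Ldha stood at the other end of the TE differences. It had ratios of 4.28 and 4.37 in Y1cKO, against 6.47 and 4.98 in Y1CTL, and a log2 TE change of -0.39 (95% interval -1.06 to 0.27). Pkm, the step before it, had ratios of 7.55 and 5.55 in Y1cKO, against 6.74 and 2.78 in Y1CTL, and a log2 TE change of 0.58 (-0.57 to 1.73). Pgk1 had 7.18 and 4.86 in Y1cKO, against 6.21 and 3.08 in Y1CTL (log2 TE change 0.43, -0.46 to 1.33), and Eno1 had 3.11 and 2.51 in Y1cKO, against 3.17 and 1.35 in Y1CTL (0.43, -0.52 to 1.38). For these the genotypes overlapped, except for Ldha.

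The remaining enzymes were Hk2, Aldoa, Tpi1 and Gapdh, with log2 TE changes from -0.07 to 0.45. Hk2 had ratios of 2.59 and 2.94 in Y1cKO, against 3.27 and 1.99 in Y1CTL, and Aldoa 2.21 and 1.43 in Y1cKO, against 1.70 and 1.27 in Y1CTL. Tpi1 had 3.93 and 4.42 in Y1cKO, against 4.36 and 4.38 in Y1CTL, the least variable of the 10. The log2 TE change was 0.11 for Hk2 (95% interval -0.61 to 0.83), 0.27 for Aldoa (-0.59 to 1.14), 0.45 for Gapdh (-0.32 to 1.22) and -0.07 for Tpi1 (-0.61 to 0.48; 0.10 with libraries scaled to the same median). Of the 10 enzymes, 8 had their lowest ratio in Y1CTL replicate 2, as 25.5% of genes did, and 6 had their highest in Y1cKO replicate 1, as 10.8% of genes did. With the header numbers 8 again had their lowest ratio in Y1CTL replicate 2, against 26.7% of genes, but 7 had their highest in the pair with Y1cKO Ribo-seq replicate 2, against 14.2% of genes, and 0 in that with replicate 1. Without Y1CTL replicate 2 the median log2 TE change of the 10 was -0.06, against 0.87 without Y1CTL replicate 1. Without the Y1cKO RNA-seq library that held muscle transcripts it was 0.22, and without the Y1CTL RNA-seq library that held lymphocyte transcripts it was 0.11.

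As a level, footprints per transcript lay above the median gene for most of the enzymes and were low for Gapdh. The ratio of mean Ribo-seq to mean RNA-seq RPKM over all libraries was 1.88 for the median gene, and 8 of 10 enzymes lay above it. Apart from Gapdh, percentiles of the ratio ran from 43.6 for Aldoa and 59.4 for Eno1 to 86.0 for Pgk1 and Pkm. Pgk1 (5.04), Pkm (5.04), Ldha (4.93) and Tpi1 (4.27) had the highest ratios, followed by Gpi1 (3.65), Pfkl (3.04), Hk2 (2.63), Eno1 (2.35) and Aldoa (1.61). Gapdh had 0.478 and 0.299 in Y1cKO, against 0.350 and 0.218 in Y1CTL, and its ratio of means of 0.319 lay at percentile 2.71 of genes. Gapdh was therefore second among the transcripts and ninth among the footprints of the 10. Its coding length is 1077 of 1273 bases in the files. How reads shared with copies of Gapdh were counted in each assay is not given, so that its ratio is uncertain to that extent.

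**Figure D4:**
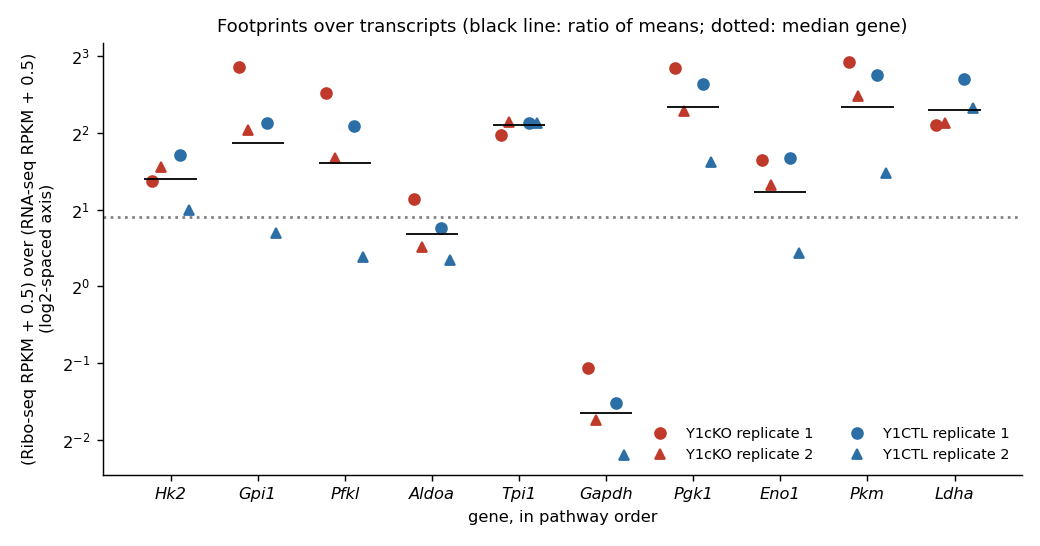
Ratio of Ribo-seq to RNA-seq RPKM (each + 0.5), paired by the numbers of the labels, for each glycolysis enzyme on a log2-spaced axis, with Y1cKO (red) left of Y1CTL (blue), circles for replicate 1 and triangles for replicate 2; black lines are the ratio of means over all libraries and the dotted line is the median gene at 1.88. Gapdh lies below 0.5 in all 4 and the Y1CTL replicate 2 triangle is the lowest point for 8 of 10 enzymes.

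The rest of glycolysis and glucose entry was read from a list of 42 genes. Of the 35 tested in Ribo-seq, 18 had a log2 change below 0 and 17 above, and 0 passed an adjusted p under 0.05 (limma, Benjamini-Hochberg), with 2 lower (5.71%, beside 1.13% of all genes) and 0 higher at an unadjusted p under 0.05. Of the 33 tested in RNA-seq, 16 lay below 0 and 17 above, and 0 passed, with 0 lower and 3 higher (9.09%, beside 10% of all genes) at an unadjusted p under 0.05. Of the 33 tested for TE, 20 lay below 0 and 13 above, and 0 passed, with 3 lower (9.09%, beside 7.12% of all genes) and 0 higher at an unadjusted p under 0.05. In RNA-seq and TE these shares are near the background, so that the genes described next are values and not results about the list. The medians of the list were -7.6e-05 for footprints, 0.05 for transcripts and -0.18 for TE, beside 0.01, 0.17 and -0.17 over all genes.

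Of the list, Pfkfb3 had the smallest p-value by RNA-seq. Pfkfb3, whose product makes the fructose bisphosphate that activates phosphofructokinase, had 159 and 187 RPKM in Y1cKO transcripts, against 107 and 90.9 RPKM in Y1CTL. Its footprints were 259 and 216 RPKM in Y1cKO, against 247 and 398 RPKM in Y1CTL. Transcripts were higher in both Y1cKO libraries (log2 change 0.80, 95% interval 0.29 to 1.31, adjusted p = 0.402 by limma with Benjamini-Hochberg) and footprints overlapped, with a log2 TE change of -1.21 (-2.03 to -0.38, adjusted p = 0.563 by limma with Benjamini-Hochberg). Pfkfb2, a related kinase, had 6.19 and 6.99 RPKM in Y1cKO transcripts, against 5.46 and 4.12 RPKM in Y1CTL, and a log2 TE change of -0.77 (-1.41 to -0.14).

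Bpgm, which makes bisphosphoglycerate on a side branch, had higher transcripts and lower footprints in both Y1cKO libraries than in either Y1CTL library. Its transcripts were at 6.90 and 6.69 RPKM in Y1cKO, against 4.55 and 3.09 RPKM in Y1CTL, and its footprints at 14.2 and 14.4 RPKM in Y1cKO, against 26.3 and 16.6 RPKM in Y1CTL. The log2 TE change was -1.31 (95% interval -2.16 to -0.46, adjusted p = 0.563 by limma with Benjamini-Hochberg). Slc2a3, a glucose transporter, had footprints of 3.84 and 4.71 RPKM in Y1cKO, against 6.16 and 6.33 RPKM in Y1CTL (log2 change -0.50, -0.96 to -0.04). None of these passed the adjusted threshold.

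The main glucose transporters and Ldhb overlapped between genotypes by footprints. Slc2a4, the insulin-responsive transporter of fat and muscle, had 276 and 263 RPKM in Y1cKO Ribo-seq, against 289 and 238 RPKM in Y1CTL. By RNA-seq, Slc2a4 had 128 and 119 RPKM in Y1cKO, both below the 137 and 135 RPKM in Y1CTL, while Slc2a1 overlapped. Slc2a1, the transporter of most cells, had 21.7 and 22.6 RPKM in Y1cKO Ribo-seq, against 22.1 and 24.4 RPKM in Y1CTL. Ldhb had 722 and 629.8 RPKM in Y1cKO Ribo-seq, against 846 and 349 RPKM in Y1CTL, and by RNA-seq 37.4 and 99.3 RPKM in Y1cKO, against 78.3 and 109 RPKM in Y1CTL. Ldhb thus had its low library in Y1CTL replicate 2 by footprints and in Y1cKO replicate 1 by transcripts, as Ucp1 did.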

How the data were processed

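RNA-seq (polyadenylated RNA) and Ribo-seq (RNase I footprints) were made from iWAT, by the labels from divided lysates. Whether same-numbered libraries shared a lysate was not tested. Per the submitters' processing notes, reads were mapped with HISAT2 2.2.1 to mm8, and DESeq2 is named with no role. Counter, annotation release and strand setting: not given in the sources used here. Deposited values are RPKM, which the authors computed over transcript length for RNA-seq and over coding length for Ribo-seq. Dividing each by what 1 read is worth gave whole reads for 100% of values (tolerance 0.01 read), which gave the depth. In the Y1cKO RNA-seq tables the replicate number of the header is swapped relative to the labels, which were followed. Gene symbols were matched for 17255 of 17264 identifiers.

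On log2(RPKM + 0.5), limma 3.58.1 with its trend option (R 4.3.3) compared Y1cKO with Y1CTL in each assay, and for TE took the assay by genotype interaction in all 8 libraries, among genes averaging 0.5 RPKM or more, with Benjamini-Hochberg adjustment over all genes tested. All 10 enzymes passed the filter. Log2 changes are on that scale, which understates changes of low genes. Exact tests were not used, since 2 libraries against 2 cannot pass 0.05. Labels describe lysates divided between the assays. Same-numbered libraries of a genotype were therefore paired for the ratios and in the TE replicate block. The main TE test had no term for pairs. Deviations of same-numbered libraries from group means correlated at -0.237 in Y1cKO (0.237 with the header numbers) and -0.138 in Y1CTL across genes. Alternatives were other pseudocounts, no filter, scaling to the same median, no trend, a replicate block, voom on the recovered reads and each replicate left out. The script was tested on simulated data.

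Named are the 10 enzymes, their isoenzymes and copies, the transporters Slc2a1 and Slc2a4, up to 4 further genes of the pathway list per comparison with the smallest p (1 of them is not reported here), and marker genes (adipocyte, beige, skeletal muscle, lymphocyte and macrophage lists). The members and lists were chosen with earlier results of these data known. Counting error only is covered by the read numbers. Python 3.11.15, numpy 2.4.6, pandas 2.3.3 and matplotlib 3.10.9 were used.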

Additional observations from a re-analysis of the deposited data

How the results depend on the processing

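With every library kept (other pseudocounts, no filter, scaling to the same median, no trend, replicate block, voom), 0 enzymes and 0 genes were called in any comparison, and 1 of 230 values of single enzymes changed sign, Tpi1 for TE (0.10 with the same median). With a replicate left out, 16 of 140 values changed sign and 1 passed the threshold; which library property does this was not tested. The number of enzymes called for TE was 0 to 1, and the median log2 change of the 10 was -0.13 to 0.24 for footprints, -0.59 to -0.10 for transcripts and -0.06 to 0.87 for TE.

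Without a replicate, Ribo-seq log2 changes ran from -0.095 to 0.67 for Pfkl, -0.058 to 0.22 for Aldoa, -0.16 to 0.20 for Gapdh and -0.27 to 0.36 for Pgk1. In RNA-seq they ran from -0.67 to 0.19 for Eno1 and -0.94 to 0.11 for Pkm. For TE they ran from -0.24 to 0.47 for Hk2, -0.042 to 0.59 for Aldoa, -0.15 to 0.016 for Tpi1, -0.073 to 0.94 for Pgk1, -0.18 to 1.04 for Eno1, -0.059 to 1.22 for Pkm and 0.32 to 1.75 for Gpi1. The count of all genes called reached 51 for footprints, 665 for transcripts and 963 for TE, each without Y1CTL replicate 1, where the lone Y1CTL library is assumed to vary like the others. Without Y1CTL replicate 2 it was 19, 52 and 0. The difference in share of reads was -0.06 to 0.18 percentage points by Ribo-seq and -0.27 to -0.01 by RNA-seq.

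With the replicate block, 0 enzymes were called and the median log2 TE change was 0.43. With the crossed pairing, chosen after seeing the data, 0 enzymes and 0 genes were called, and the same counts came from a replicate block with the header numbers for Y1cKO RNA-seq, also chosen after seeing the data. Leaving out a numbered Y1cKO replicate for TE rests on the numbers of the labels. Between genotypes, same-numbered libraries correlated at -0.0226 in RNA-seq and 0.0508 in Ribo-seq. With 2 libraries per group the intervals are wide, and the smallest number of reads of an enzyme in a library was 671. The pairing, the muscle and lymphocyte transcripts of single RNA-seq libraries and reads shared with copies are further limits. For TE the lymphocyte list is a limit too. Its medians were at least 43.1 RPKM in Ribo-seq and, outside Y1CTL replicate 2, at most 0.194 RPKM in RNA-seq.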
